A study of Mus musculus with 6 samples.

Results

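Ribosome biogenesis is the production of ribosomes in the nucleolus, and the 37 genes described here encode its core machinery and the transcription factor MYC. RNA polymerase I transcribes one long precursor RNA, small nucleolar ribonucleoproteins (snoRNPs) guide its chemical modification and cleavage, and assembly factors fold and trim it with ribosomal proteins into the small and large subunits. MYC is known to activate genes at each of these steps. In the heart, production of ribosomes is known to rise in hypertrophic growth, when cardiomyocytes enlarge without dividing. The genes were chosen by symbol from a list of snoRNP cores, RNA polymerase I factors, pre-rRNA processing factors and subunit assembly factors. All 37 were found among the 31273 gene symbols of the table, and each averaged 1 TPM or more in control libraries, so none entered the tests through the overexpression group alone.

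The libraries came from mouse left ventricle, with polyadenylated RNA and 3 libraries per genotype. The overexpression group carried cardiomyocyte-specific RBM20 overexpression, which the series describes as a tamoxifen-inducible knock-in mouse, and the control group carries the label control. RBM20 is a splicing regulator of heart muscle. The labels state neither age nor strain, nor the driver of the inducible transgene, nor whether either group received tamoxifen. Expression is given in TPM, transcripts of a gene per fixed total of transcripts in its library, corrected for gene length.

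Rbm20 stood at 321, 913 and 907 TPM in overexpression replicates 1, 2 and 3, against 74.9, 90.9 and 79.5 TPM in the control libraries. The levels of the gene thus followed the genotype labels. The sample titles carry cki in the control group and cre in the overexpression group, whereas the text of the series uses RBM20cKI for the knock-in mice. Esr1, the estrogen receptor gene, part of which is used in tamoxifen-inducible Cre, ranged over 52.98 to 217.8 TPM in overexpression libraries and 0.234 to 0.415 TPM in control libraries. Whether those reads come from a transgene was not tested, and RBM20 and an inducible Cre cannot be told apart as sources of a difference. Overexpression replicate 1 alone had reads of the Y-linked Ddx3y (88.1 TPM) and almost none of Xist (0.0172 TPM). Estimated depth was 50980000 to 90020000 counted reads in the overexpression libraries and 41640000 to 70590000 in the control libraries. Mitochondrially encoded RNA made up 36.7% to 41.1% of TPM in overexpression libraries and 48.3% to 52.0% in control libraries. TPM share a fixed total, and the median log2(TPM + 1) difference over all 12404 genes tested was 0.55. Calls, fold changes and summed levels are therefore given in deposited TPM and again after rescaling by median of ratios, which brought that median to 0.01, and levels are in deposited TPM unless called rescaled.

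Transcripts of nearly all of the machinery were more abundant in overexpression ventricles in deposited TPM, and those of most of it after rescaling. One gene of the H/ACA snoRNP and 2 of the RNA polymerase I genes departed furthest from the rest. The values are of polyadenylated RNA, and protein and ribosome output were not measured. In deposited TPM 35 of 37 genes rose and 0 fell (limma, adjusted p under 0.05), that is 94.6% called higher against 59% of all genes tested, while 9.09% of all genes tested were called lower and 68.1% in either direction. At an unadjusted limma p under 0.05 in TPM likewise 0 of the 37 were lower, a threshold at which all genes were not counted. After rescaling 26 rose (70.3%, against 22.2% of all genes tested) and 1 fell, where 24% of all genes were called lower and 46.2% in either direction. The overexpression libraries lay wholly above the control libraries in 36 of 37 genes in TPM (62.1% of all genes tested) and in 28 after rescaling (28.2% of all genes tested). They lay wholly below in 0 genes in TPM (10.4% of all genes tested) and after rescaling in 3 (28.8%), which were Nop10, Polr1a and Ubtf. The median log2 difference of the 37 was 1.18 in TPM and 0.57 after rescaling, beside 0.55 and 0.01 over all genes tested. The ratio of mean TPM ran between 1.007 and 6.23 with a median of 2.39, and after rescaling between 0.655 and 4.06 with a median of 1.54. A log2 difference of at least 1 was reached by 24 of the 37 in TPM, or 64.9%, beside 19.9% of all genes tested. After rescaling 9 of them reached it, or 24.3%, beside 6.09%. Called higher under both scalings were 26 genes, and another 9 were higher in TPM without passing after rescaling. These 9 were Dkc1, Nolc1, Polr1b, Ubtf, Rrp9, Nob1, Nop2, Rrs1 and Nle1. Nop10 was the gene that fell after rescaling, and Polr1a passed under neither scaling.

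**Figure D1:**
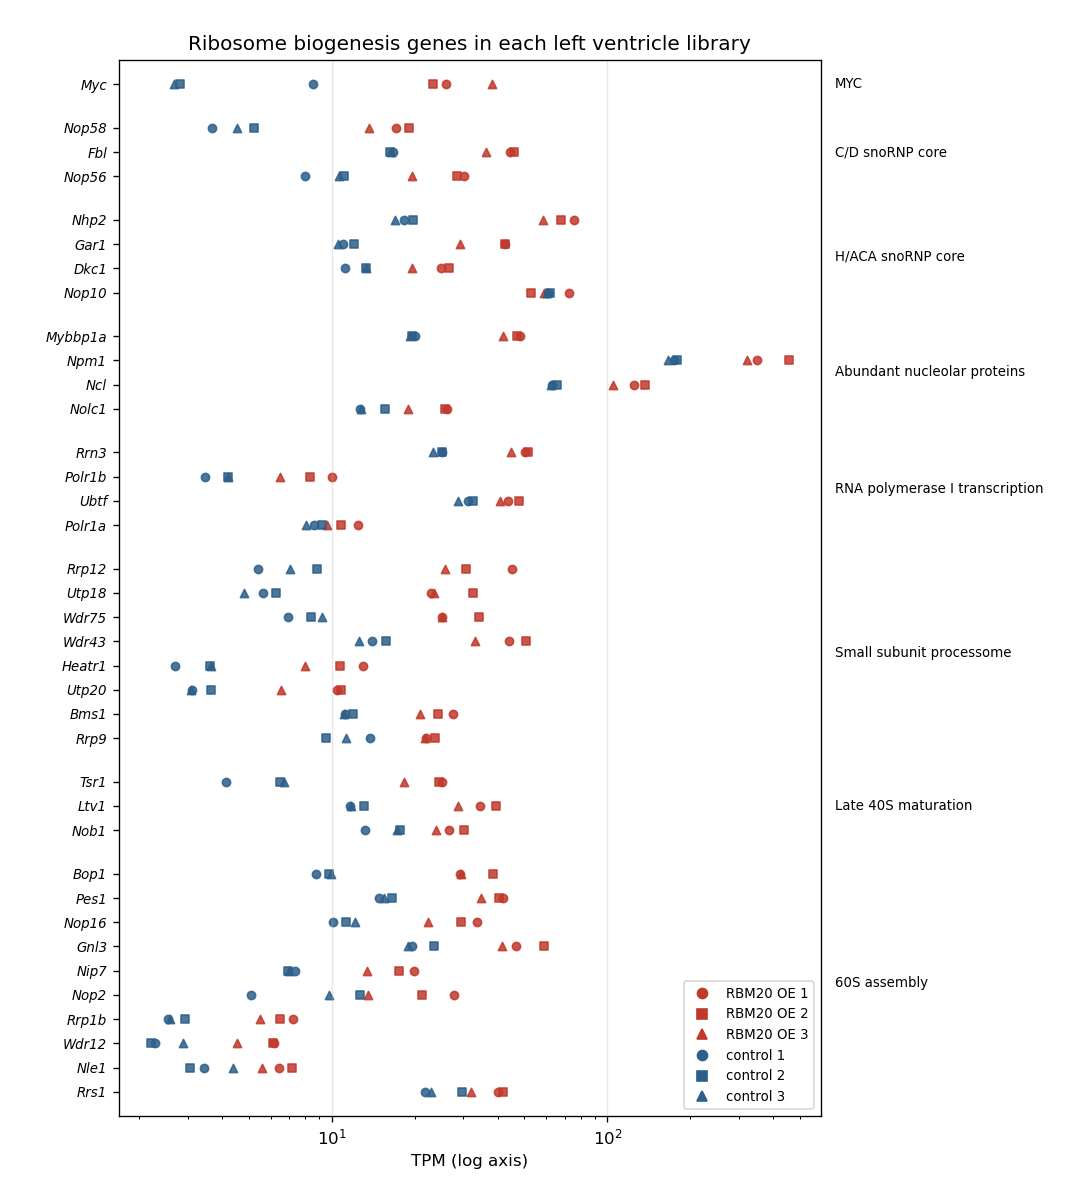
TPM of each of the 37 genes (rows, grouped by role) in each library, on a log axis, with overexpression libraries in red and control libraries in blue and a marker shape per replicate. In 36 of 37 rows all red points lie right of all blue points, and Nop10 is the row where they mix.

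Because most of these genes were called higher under both scalings, the 250 bases before the RefSeq transcription start (GRCm38.p6) were read for sequence motifs. Of the 37 genes 31 matched the promoter table by symbol. The E-box bound by MYC with its partner MAX, CACGTG on either strand, was found in 3 of 31 genes (9.68%), counting a gene where any of its listed starts held it, beside 9.99% of the 9663 tested genes with a promoter entry. Those promoters belong to Utp18, Nop2 and Rrn3. The core of the site of ETS family factors, CCGGAAG, was found in 9 of 31 (29.0%) beside 15.4% of tested genes, and the GC box, GGGCGG, in 19 of 31 (61.3%) beside 63.4%. Over all 27025 genes of the promoter table the shares were 6.86% for the E-box, 7.83% for the ETS core and 35.4% for the GC box. The E-box and GC box shares thus lay near those of the tested genes, and no test was made of the ETS share. The 3 promoters with an E-box are shown first, followed by a pair from the same H/ACA particle, Gar1, which rose, and Nop10, which did not. Capitals mark the 3 motifs on either strand, and matches of different motifs may overlap.
Utp18, chr11:93885767-93886016, minus strand: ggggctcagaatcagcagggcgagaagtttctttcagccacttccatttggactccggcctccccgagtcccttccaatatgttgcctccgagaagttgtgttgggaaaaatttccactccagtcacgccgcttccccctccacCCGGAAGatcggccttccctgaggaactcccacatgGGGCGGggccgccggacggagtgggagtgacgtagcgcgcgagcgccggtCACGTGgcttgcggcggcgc
Nop2, chr6:125131633-125131882, plus strand: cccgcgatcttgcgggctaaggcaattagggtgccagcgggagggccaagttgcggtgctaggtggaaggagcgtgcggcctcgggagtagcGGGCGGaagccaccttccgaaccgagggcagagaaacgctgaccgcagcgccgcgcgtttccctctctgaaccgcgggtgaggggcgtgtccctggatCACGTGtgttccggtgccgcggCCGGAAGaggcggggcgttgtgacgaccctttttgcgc
Rrn3, chr16:13780449-13780698, plus strand: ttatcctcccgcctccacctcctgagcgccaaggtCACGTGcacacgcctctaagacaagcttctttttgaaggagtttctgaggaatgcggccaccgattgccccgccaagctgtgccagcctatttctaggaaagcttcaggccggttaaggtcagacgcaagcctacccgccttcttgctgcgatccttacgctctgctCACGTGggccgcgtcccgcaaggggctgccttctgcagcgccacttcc
Gar1, chr3:129831397-129831646, minus strand: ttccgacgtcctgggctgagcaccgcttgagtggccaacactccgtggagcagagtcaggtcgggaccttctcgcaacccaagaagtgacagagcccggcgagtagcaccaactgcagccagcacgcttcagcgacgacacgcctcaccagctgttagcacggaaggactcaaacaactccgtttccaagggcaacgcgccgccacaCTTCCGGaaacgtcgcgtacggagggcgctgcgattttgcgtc
Nop10, chr2:112261676-112261925, plus strand: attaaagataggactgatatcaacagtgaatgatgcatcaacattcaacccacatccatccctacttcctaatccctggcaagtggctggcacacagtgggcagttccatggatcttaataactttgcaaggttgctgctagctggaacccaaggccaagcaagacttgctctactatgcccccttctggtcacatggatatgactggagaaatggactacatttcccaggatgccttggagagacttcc
The Nop10 window holds none of the 3 motifs, and that of Gar1 holds 1 ETS core. This pair does not stand for the set, since the windows of Tsr1 and Pes1, which rose under both scalings, also hold none. That of Nolc1, which did not pass after rescaling, holds 1 ETS core and 2 GC boxes. A match is a stretch of letters, and binding was not measured.

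Myc, which encodes the transcription factor, had 26.0, 23.4 and 38.2 TPM in overexpression libraries against 8.58, 2.81 and 2.67 TPM in control libraries. All overexpression libraries lay above all control libraries, but control replicate 1 stood well above the other control libraries. The ratio of means was 6.23, the highest of the 37 genes, and it was 10.7 without control replicate 1, both in TPM. After rescaling the ratio of means was 4.06. Myc rose by a log2 difference of 2.53 (SE 0.36, limma adjusted p = 0.000411), and after rescaling by 1.97 (SE 0.40, adjusted p = 0.00492). Myc lies at chr15:61985391-61990374 on the plus strand of GRCm38. Of the 10 other genes of the MYC and MAX network that reached the expression filter, 5 were higher and 0 lower in TPM, and 1 was higher and 2 lower after rescaling. These shares of 50% and 10% called higher lay below the 59% and 22.2% of all genes tested. Mlx, a dimerization partner in this network, rose under both scalings, to 27.97 ± 3.09 TPM in overexpression libraries against 12.6 ± 2.23 TPM in control libraries (SD, n = 3 each), with a rescaled ratio of means of 1.44. Max, the obligate partner of MYC and singled out after its values were seen, had 59.7 ± 10.1 and 57.1 ± 15.5 TPM in overexpression and control libraries (SD, n = 3 each) and was called under neither scaling.

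The box C/D snoRNP places methyl groups on ribose in ribosomal RNA. Transcripts of its 3 proteins on the list rose under both scalings, beside 59% of all genes tested in TPM and 22.2% after rescaling. Nop58, a scaffold of the particle, had 17.2, 19.1 and 13.7 TPM in overexpression libraries against 3.68, 5.22 and 4.54 TPM in control libraries. The groups were well apart, with a log2 difference of 1.69 (SE 0.17, limma adjusted p = 8.6e-05), or 1.13 after rescaling. Nop56, its paralog in the particle, had 30.1, 28.5 and 19.5 TPM against 8.02, 11.1 and 10.6 TPM in control libraries. Its overexpression replicate 3 was the lowest of that group and still above every control library, with a log2 difference of 1.30 (SE 0.19, adjusted p = 0.000462), or 0.71 after rescaling. Fbl, the methyltransferase fibrillarin, was nearly constant among control libraries, at 42.2 ± 5.07 TPM in overexpression libraries and 16.5 ± 0.175 TPM in control libraries (SD, n = 3 each), a 2.56-fold increase, or 1.65-fold after rescaling.

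The box H/ACA snoRNP converts uridine to pseudouridine, and the transcripts of its 4 core proteins did not move as one. Nhp2, an RNA-binding core protein, had 75.6, 68.0 and 58.3 TPM in overexpression libraries against 18.4, 19.7 and 17.01 TPM in control libraries. This separation was wide and the difference passed under both scalings (log2 1.81, SE 0.12, limma adjusted p = 1.7e-05, and 1.21 after rescaling). Gar1, which joins the mature particle, rose to 38.1 ± 7.68 TPM in overexpression libraries against 11.2 ± 0.777 TPM in control libraries (SD, n = 3 each), 3.41-fold, or 2.19-fold after rescaling. Dkc1, the pseudouridine synthase dyskerin, had 24.8, 26.6 and 19.6 TPM in overexpression libraries against 11.2, 13.3 and 13.4 TPM in control libraries. It rose in TPM by 0.85 (SE 0.14, adjusted p = 0.00103), while after rescaling the groups overlapped and the difference of 0.26 did not pass (adjusted p = 0.109). Nop10, the smallest subunit, had 72.4, 53.0 and 59.1 TPM in overexpression libraries against 60.8, 61.9 and 60.4 TPM in control libraries. The control values lay inside the overexpression range, and the TPM difference was close to 0 (95% confidence interval -0.28 to 0.28, adjusted p = 0.993). After rescaling Nop10 had 58.2, 39.4 and 50.3 in overexpression libraries against 76.1, 73.1 and 76.7 in control libraries. All overexpression libraries were then the lower ones, and Nop10 fell by 0.62 on the log2 scale (SE 0.14, adjusted p = 0.00725). Nop10 lies at chr2:112261926-112263269 on the plus strand of GRCm38.

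**Figure D2:**
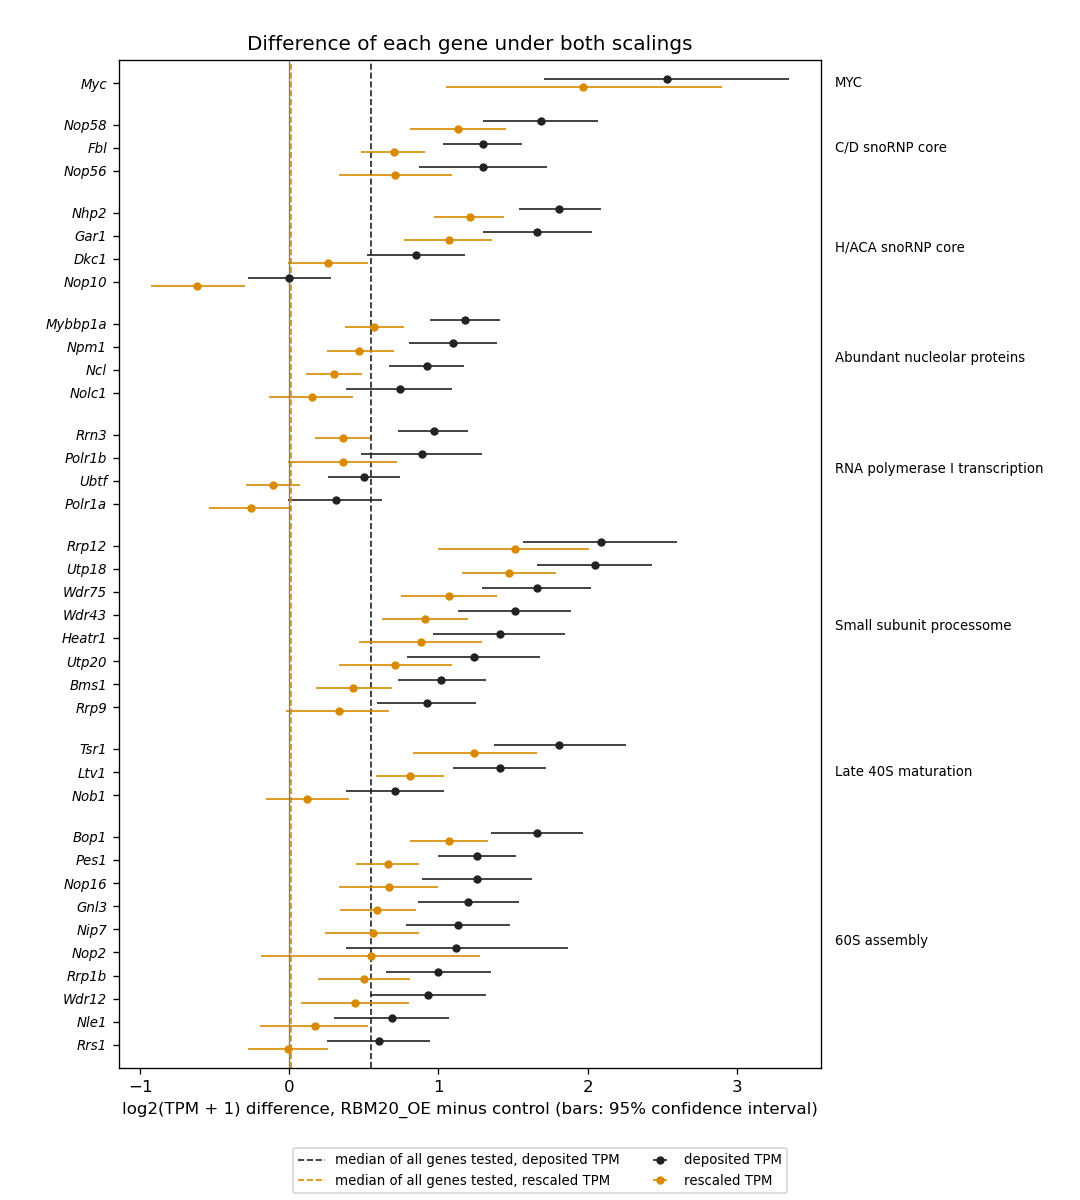
Log2(TPM + 1) difference of each gene, overexpression minus control, with its 95% confidence interval, in deposited TPM (black) and after rescaling (orange), with dashed lines at the medians of all genes tested, 0.55 and 0.01. Most genes lie right of the line of their own colour, whereas Nop10, Polr1a and Ubtf lie left of both lines.

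The abundant nucleolar proteins included the highest transcripts of the set. Npm1, nucleophosmin, a histone and ribosome chaperone, had 349, 456 and 322 TPM in overexpression libraries against 175, 179 and 166 TPM in control libraries. Ncl, nucleolin, which binds the precursor RNA, reached 122 ± 16.2 TPM in overexpression libraries against 63.6 ± 1.74 TPM in control libraries (SD, n = 3 each). Both rose under both scalings (limma log2 difference in TPM 1.10, SE 0.13, adjusted p = 0.000162 for Npm1, and 0.92, SE 0.11, adjusted p = 0.000187 for Ncl), with ratios of mean TPM of 2.17 for Npm1 and 1.92 for Ncl, and of 1.40 and 1.24 after rescaling. The rescaled Ncl call ended without control replicate 2, control replicate 3 or overexpression replicate 2 (adjusted p = 0.0645, 0.0621 and 0.0582). Mybbp1a, a nucleolar protein that binds MYB and RNA polymerase I, had 48.3, 46.9 and 41.8 TPM against 20.0, 19.6 and 19.2 TPM in control libraries. Its log2 difference was the largest of these 4 genes at 1.18 (SE 0.10, limma adjusted p = 4.5e-05), or 0.57 after rescaling. Nolc1, a chaperone of snoRNPs, had 26.3, 25.7 and 18.8 TPM in overexpression libraries against 12.6, 15.5 and 12.8 TPM in control libraries. It rose by 0.74 in TPM (SE 0.16, adjusted p = 0.0031), and after rescaling the groups overlapped (0.15, adjusted p = 0.376).

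The genes of RNA polymerase I transcription had the lowest median of the groups of role, 0.70 in TPM and 0.12 after rescaling. Rrn3, the factor that brings the polymerase to the ribosomal DNA promoter, had 50.2, 51.8 and 44.7 TPM in overexpression libraries against 25.1, 25.1 and 23.3 TPM in control libraries. It was the one of these 4 genes that rose under both scalings (0.97, SE 0.10, limma adjusted p = 0.000102, and 0.36, SE 0.08, adjusted p = 0.0082 after rescaling). Polr1b, the second-largest subunit, had 10.02, 8.35 and 6.46 TPM in overexpression libraries against 3.46, 4.22 and 4.201 TPM in control libraries, without overlap. It rose in TPM (0.89, SE 0.18, adjusted p = 0.00229) and did not pass after rescaling (0.36, SE 0.16, adjusted p = 0.102). Polr1a, the largest and catalytic subunit, had 12.4, 10.8 and 9.60 TPM in overexpression libraries against 8.59, 9.18 and 8.06 TPM in control libraries. The groups were close without overlapping, overexpression libraries being the higher ones in TPM and the lower ones after rescaling, and its difference of 0.31 (SE 0.14, adjusted p = 0.0761) did not pass in TPM, nor did that of -0.26 after rescaling (adjusted p = 0.11). Without overexpression replicate 3 the TPM difference of Polr1a passed (0.39, adjusted p = 0.0428), and without overexpression replicate 1 the rescaled one did (-0.35, adjusted p = 0.0457). Ubtf, the DNA-binding activator of ribosomal DNA, had 43.7, 47.9 and 40.8 TPM in overexpression libraries against 31.3, 32.6 and 28.7 TPM in control libraries. It rose by 0.50 in TPM (SE 0.11, adjusted p = 0.00298) and stood at -0.11 after rescaling (SE 0.08, adjusted p = 0.3), when all overexpression libraries lay below the control libraries. Of 16 other RNA polymerase I genes 13 were higher and 0 lower in TPM, and 5 were higher and 3 lower after rescaling (81.2% and 31.2% called higher, beside 59% and 22.2% of all genes tested). Polr2h, a subunit shared by the nuclear polymerases, rose under both scalings, to 18.8 ± 1.24 TPM in overexpression libraries against 8.95 ± 0.73 TPM in control libraries (SD, n = 3 each), with a rescaled ratio of means of 1.36.

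Genes of the small subunit processome, the large particle that cleaves the precursor toward the small subunit RNA, included the largest rises after Myc. Rrp12, a protein of pre-ribosome maturation and export, had 45.2, 30.6 and 25.8 TPM in overexpression libraries against 5.41, 8.86 and 7.08 TPM in control libraries. Overexpression replicate 1 was the highest, and the difference was 2.09 (SE 0.23, limma adjusted p = 0.000117), or 1.51 after rescaling. Utp18, a WD-repeat subunit, had 22.9, 32.7 and 23.4 TPM against 5.64, 6.28 and 4.79 TPM in control libraries. Its rise was as large, at 2.05 (SE 0.17, adjusted p = 3.7e-05), or 1.47 after rescaling. Wdr75 and Wdr43, subunits of the part of the processome that joins the precursor first, rose 3.43-fold and 3.01-fold in TPM, and 2.21-fold and 1.94-fold after rescaling. Heatr1, of the same part, rose 3.18-fold in TPM and 2.06-fold after rescaling. Utp20 rose 2.82-fold and the GTPase Bms1 2.14-fold in TPM, and 1.82-fold and 1.38-fold after rescaling. Rrp9, a protein of the U3 snoRNP, had 22.0, 23.7 and 21.8 TPM in overexpression libraries against 13.8, 9.55 and 11.3 TPM in control libraries. It rose in TPM (0.92, SE 0.14, adjusted p = 0.000673), and after rescaling it did not pass (0.33, adjusted p = 0.108) although its groups did not overlap. Without control replicate 1 the rescaled difference of Rrp9 passed (0.465, adjusted p = 0.0236). All 8 of these genes thus rose in TPM and 7 of them after rescaling (100% and 87.5%, beside 59% and 22.2% of all genes tested). The rescaled call of Bms1 ended without control replicate 3 (limma adjusted p = 0.0512).

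Late maturation of the small subunit takes place in the cytoplasm. The 3 genes of this step rose in TPM and 2 of them after rescaling (100% and 66.7%, beside 59% and 22.2% of all genes tested). Tsr1, a GTPase-like factor that occupies the immature subunit, had 25.2, 24.5 and 18.3 TPM in overexpression libraries against 4.15, 6.48 and 6.69 TPM in control libraries. The groups were far apart (1.81, SE 0.20, limma adjusted p = 0.000112, and 1.24 after rescaling), but 32.3% of the exon bases of Tsr1 are shared with Srr on the opposite strand, and the labels call the reads strand-specific without saying whether counting used the strand. Ltv1, an assembly factor of the subunit head, rose 2.81-fold in TPM and 1.81-fold after rescaling. Nob1, the nuclease that makes the final cut of the small subunit RNA, had 26.6, 30.1 and 23.8 TPM in overexpression libraries against 13.2, 17.6 and 17.2 TPM in control libraries. It rose by 0.71 in TPM (SE 0.15, adjusted p = 0.00253), while after rescaling the groups overlapped and the difference was 0.12 (adjusted p = 0.469). Of 46 other tested small subunit factors 44 were higher and 0 lower in TPM, and 23 were higher and 2 lower after rescaling (95.7% and 50% called higher, beside 59% and 22.2% of all genes tested). Among them Bysl, bystin, rose to 21.6 ± 2.05 TPM in overexpression libraries against 8.53 ± 0.267 TPM in control libraries (SD, n = 3 each), with a rescaled ratio of means of 1.64.

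All 10 genes of large subunit assembly rose in TPM and 7 of them after rescaling (100% and 70%, beside 59% and 22.2% of all genes tested). Bop1, Pes1 and Wdr12 form the PeBoW complex, and each rose under both scalings, by different amounts. Bop1 had 29.2, 38.4 and 29.5 TPM in overexpression libraries against 8.73, 9.79 and 9.94 TPM in control libraries, the largest difference of these 10 (1.66, SE 0.14, limma adjusted p = 3.9e-05, and 1.07 after rescaling). Pes1 rose 2.50-fold in TPM and 1.61-fold after rescaling, with levels of 38.96 ± 3.74 TPM in overexpression libraries and 15.6 ± 0.875 TPM in control libraries (SD, n = 3 each). Wdr12 was much lower, at 5.62 ± 0.931 and 2.45 ± 0.373 TPM in overexpression and control libraries (SD, n = 3 each), and its rescaled call was at the threshold (0.44, adjusted p = 0.0498). That call ended in 4 of the 6 fits that left out 1 library, without control replicates 1 and 2 and without overexpression replicates 1 and 2 (adjusted p = 0.102 to 0.151). Gnl3, nucleostemin, a GTPase that shuttles through the nucleolus, rose 2.38-fold in TPM and 1.53-fold after rescaling, and Nop16 rose 2.55-fold and 1.64-fold. Nip7 and Rrp1b rose 2.39-fold each in TPM and 1.54-fold each after rescaling. The rescaled call of Rrp1b ended without control replicate 3 (adjusted p = 0.0542).

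Nop2, Nle1 and Rrs1 rose in TPM without passing after rescaling. Nop2, an RNA methyltransferase, had 27.8, 21.2 and 13.5 TPM in overexpression libraries against 5.11, 12.6 and 9.80 TPM in control libraries. It had the largest SE of the 10 on the log2 scale, and its lowest overexpression library was close to its highest control library (1.12, SE 0.33, limma adjusted p = 0.0143). After rescaling the groups overlapped (0.55, adjusted p = 0.197). The TPM call ended without overexpression replicate 2 (adjusted p = 0.0542). Nle1, which is known to engage the remodelling ATPase of the immature large subunit, had 6.42, 7.18 and 5.58 TPM against 3.43, 3.05 and 4.37 TPM in control libraries. Its groups were apart in TPM (0.69, SE 0.17, adjusted p = 0.0063) and overlapped after rescaling (0.17, adjusted p = 0.427). Rrs1, which in yeast helps to install the ribosomal 5S particle, had 40.2, 41.8 and 32.0 TPM in overexpression libraries against 21.9, 29.7 and 23.0 TPM in control libraries. Its TPM difference of 0.60 (SE 0.15, adjusted p = 0.00753) became -0.01 after rescaling, with overlapping groups. Of 49 other tested large subunit factors 44 were higher and 0 lower in TPM, and 27 were higher and 4 lower after rescaling (89.8% and 55.1% called higher, beside 59% and 22.2% of all genes tested). The helicase Ddx21 had the smallest p among them and rose to 61.5 ± 5.87 TPM in overexpression libraries against 21.4 ± 1.69 TPM in control libraries (SD, n = 3 each, limma adjusted p = 2.8e-05), with a rescaled ratio of means of 1.86.

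Other steps of the pathway were described by further lists. Of 12 snoRNP assembly factors 9 were higher and 1 lower in TPM, and 3 higher and 1 lower after rescaling (75% and 25% called higher, beside 59% and 22.2% of all genes tested). Ruvbl1, a helicase of snoRNP assembly, was at 30.05 ± 3.25 TPM in overexpression libraries and 12.8 ± 0.976 TPM in control libraries (SD, n = 3 each), with a rescaled ratio of means of 1.51. Of 16 genes of the nuclear exosome, which trims precursor RNA, 13 were higher and 0 lower in TPM, or 81.2%, and 2 were higher and 0 lower after rescaling, or 12.5%, which is below the 22.2% of all genes tested. Over these and the other RNA polymerase I and subunit factors, 123 of 139 genes (88.5%, against 59% of all genes tested) were higher in TPM, and 60 (43.2%, against 22.2%) after rescaling, when 10 were lower. Host genes of snoRNAs that encode no protein were higher in 12 of 15 in TPM and in 7 after rescaling, when 1 was lower (80% and 46.7% called higher, beside 59% and 22.2% of all genes tested). Gas5, such a host gene, rose to 47.8 ± 5.28 TPM in overexpression libraries against 18.6 ± 0.643 TPM in control libraries (SD, n = 3 each), with a rescaled ratio of means of 1.66. MYC targets outside ribosome production were higher in 23 of 32 and lower in 2 in TPM, and higher in 18 and lower in 7 after rescaling. The shares called higher were 71.9% and 56.2%, beside 59% and 22.2% of all genes tested, of which 9.09% and 24% were called lower. Ctps, the enzyme of cytidine nucleotide synthesis, had the smallest p among these MYC targets, at 186 ± 47.0 TPM in overexpression libraries and 28.2 ± 0.903 TPM in control libraries (SD, n = 3 each), with a rescaled ratio of means of 4.24. Of 79 cytosolic ribosomal protein genes, the products that these factors assemble, 73 were higher in TPM, but after rescaling 6 were higher and 8 lower with a median of 0.03 (92.4% and 7.59% called higher, beside 59% and 22.2% of all genes tested). Rpl3 had the smallest p among them, at 470.2 ± 48.1 TPM in overexpression libraries and 144 ± 20.0 TPM in control libraries (SD, n = 3 each), with a rescaled ratio of means of 2.11.

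**Figure D3:**
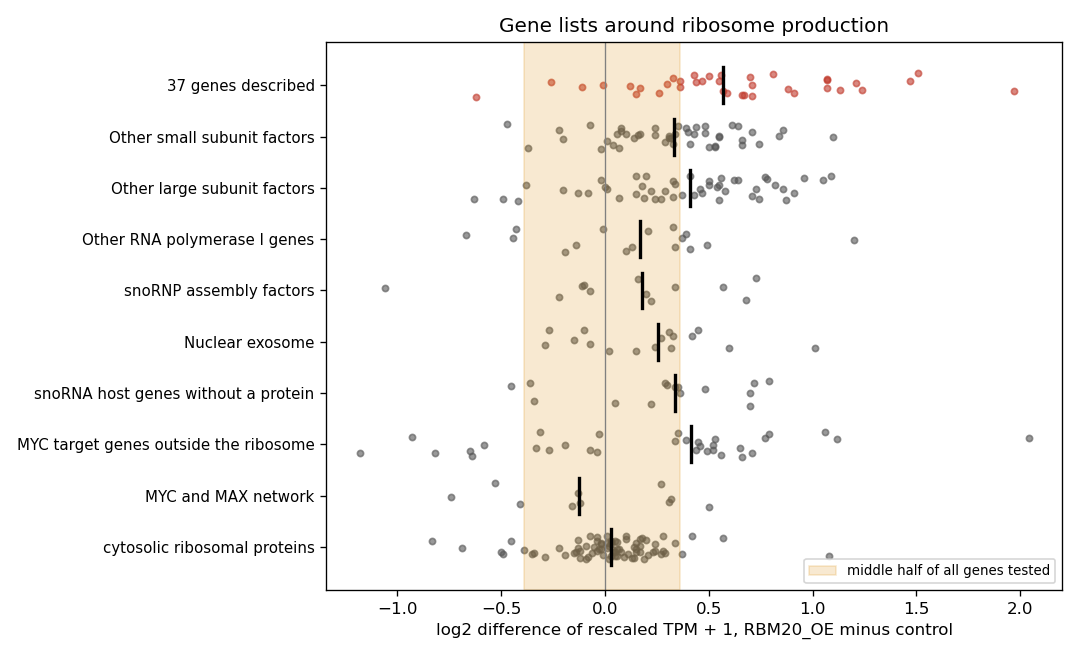
Rescaled log2 difference (x axis, overexpression minus control) of each tested gene in the 37 genes described (red) and in lists of related genes (grey), with list medians as black bars and the range between the quartiles of all genes tested shaded. The median of the 37 genes lies at 0.57, beyond the shaded range of -0.39 to 0.36, while that of the ribosomal protein genes lies at 0.03.

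The overexpression libraries did not share one level. Overexpression replicate 3 had the lowest TPM of its group in 32 of the 37 genes, and in 29 after rescaling. The summed TPM of the 37 genes was 1553, 1670 and 1301 in overexpression replicates 1, 2 and 3 against 664.2, 717 and 664.5 in the control libraries. After rescaling the sums were 1247, 1242 and 1108 against 832, 846 and 843 in the control libraries, so the groups stayed apart. Myc ran the other way and was highest in overexpression replicate 3. The median coefficient of variation of the genes was 16.5% among overexpression libraries and 9.86% among control libraries in TPM, and Myc had the widest spread among control libraries at 72.0%. Rbm20 itself was lowest in overexpression replicate 1, the library with reads of the Y-linked Ddx3y. That library was the highest of its group in 17 of the 37 genes in TPM and in 23 after rescaling.

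**Figure D4:**
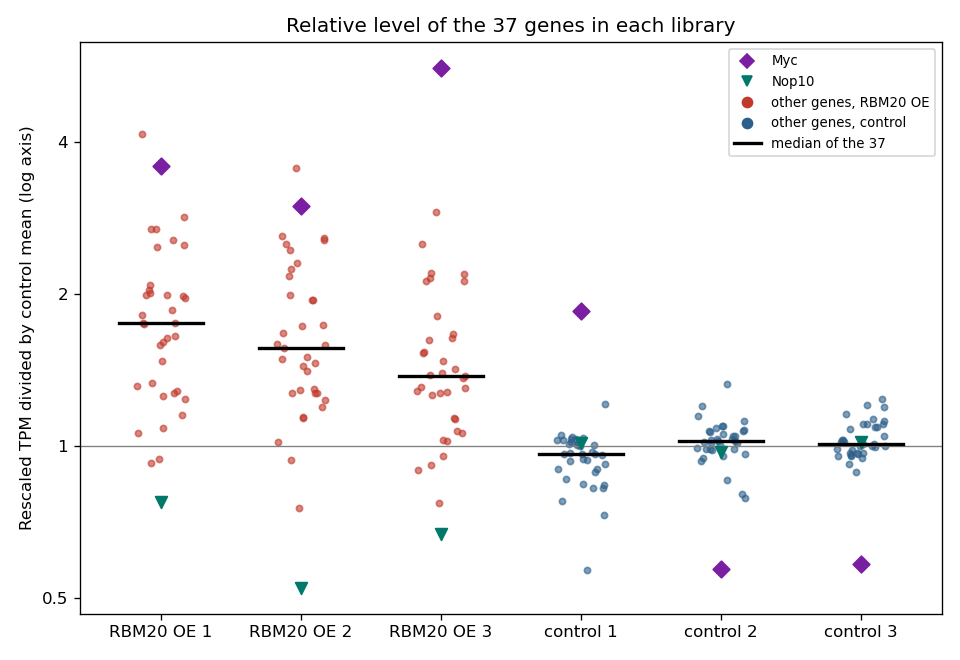
Rescaled TPM of each of the 37 genes divided by its control mean (log axis) in each library, with overexpression libraries left of control libraries and a black bar at the median of the 37. The bar is highest in overexpression replicate 1 and lowest among overexpression libraries in replicate 3, where Myc (diamond) is at its highest, and Nop10 (triangle) lies below 1 in all overexpression libraries.

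Markers of cell types were read in the same libraries, and in bulk tissue fewer cells of a type and less RNA per cell cannot be told apart. For comparison with the counts below, 59% of all genes tested were called higher and 9.09% lower in TPM. After rescaling these shares were 22.2% and 24%. Of 12 cardiomyocyte markers 2 were higher and 6 lower in TPM, and 0 were higher and 10 lower after rescaling, and their summed TPM was 47020 to 51980 in overexpression libraries and 51360 to 57850 in control libraries. Those sums overlapped in TPM, whereas the rescaled sums were apart, at 34980 to 44280 in overexpression libraries and 65160 to 72440 in control libraries. All 10 macrophage markers were higher in TPM and 9 after rescaling, with sums of 786 to 1378 TPM in overexpression libraries and 361 to 470.0 TPM in control libraries, and rescaled sums of 669.8 to 1106 and 457.8 to 588.6. Among 10 fibroblast markers 7 were higher and 1 lower in TPM, and 5 were higher and 3 lower after rescaling, with sums of 2319 to 2863 and 1351 to 1803 TPM in overexpression and control libraries. The fibroblast sums were apart in TPM alone, since the rescaled sums of 1926 to 2129 in overexpression libraries lay within the 1714 to 2258 of control libraries. Of 11 tested proliferation markers 10 were higher and 1 lower in TPM, and 9 higher and 1 lower after rescaling, although just 4 of them averaged 1 TPM or more in control libraries, and their sums were 58.7 to 108 TPM in overexpression libraries and 18.6 to 20.3 TPM in control libraries, and after rescaling 49.98 to 80.45 and 21.94 to 25.75. Endothelial markers were called in 0 of 10 in TPM (limma, sums 718 to 783 and 612 to 759 TPM in overexpression and control libraries), with 1 higher and 0 lower at an unadjusted p under 0.05, and 4 were lower after rescaling, with rescaled sums of 582.2 to 611.5 in overexpression libraries and 776.2 to 950.2 in control libraries. Of 7 tested smooth muscle and pericyte markers 2 were higher and 1 lower in TPM, and 1 was higher and 4 lower after rescaling. Their sums overlapped in TPM, at 620.3 to 672 TPM in overexpression libraries and 592 to 724 TPM in control libraries, and were apart after rescaling, at 500.1 to 528.5 and 751.5 to 906.8. Of the lymphocyte and neutrophil markers 2 reached the filter, S100a8 and S100a9, both higher in TPM, and both calls ended after rescaling, when the groups overlapped (limma adjusted p = 0.15 and 0.0849). Summed over the list, levels were 11.8 to 31.9 TPM in overexpression libraries and 6.18 to 7.28 TPM in control libraries, and after rescaling 10.07 to 25.62 and 7.595 to 9.116, and the defining T cell gene Cd3g was listed at 0 in every control library. The part of any of these cell types in the levels of the 37 genes was not tested.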

How the data were processed

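Per the labels' protocols, polyadenylated RNA of mouse left ventricle was made into TruSeq libraries and read as strand-specific read pairs. The authors deposited one TPM value per gene symbol and library, and the unit is taken from how the table is named. Per the submitters' processing notes, the tools were STAR-Fusion 1.11.0, GATK 4.2.6.1, featureCounts 2.0.3 and edgeR 3.40.2 with build mm8, and the part each played, the aligner and the annotation were not given in the sources used here. Positions printed come from GENCODE M21 (GRCm38), and promoter sequences are from RefSeq (GRCm38.p6). Neither entered a test.

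Groups follow the genotype labels, and nothing says more about separate animals than the title numbers, so p-values measure the spread between these libraries. Genes averaging 1 TPM or more over all libraries were compared as log2(TPM + 1) with limma 3.58.1 in R 4.3.3 (trended, two-sided, Benjamini-Hochberg adjustment over all 12404 genes, threshold 0.05). On this scale the change of a low gene comes out too small, and each fold is a ratio of mean TPM. Rescaling used median-of-ratios factors from genes above 0 in all libraries (factors 1.17 to 1.34 in overexpression and 0.788 to 0.847 in control libraries). TPM keep no depth as such. Read totals were estimated from the steps between low values multiplied by GENCODE M21 exon length, of which 57.4% to 66.0% were whole multiples of 1 read within 0.05 reads. The commonest step was 2 times the smallest one, which was taken as 1 read. Under this estimate the fewest reads behind a value of the 37 genes were 126. The 37 genes and all lists were chosen with earlier results of these data known. Library values are given for Myc, for the extremes of each group of role and for genes whose call differed between scalings, and of other lists at most the 3 genes with the smallest p were named. Scripts were tested on simulated data. Figures were drawn with matplotlib 3.10.9 in Python 3.11.15. Splicing was not analysed here.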

Additional observations from a re-analysis of the deposited data

How the results depend on the processing

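After median of ratios 26 of the 37 genes were called higher and 1 lower, 2755 genes in all were higher and 2972 lower, and the median difference of the 37 was 0.57. Quantile normalization gave 25 of the 37 higher and 1 lower, 2963 genes higher and 2816 lower, and a median of 0.676, and removal of mitochondrially encoded genes gave 1796 genes lower and a median of 0.915. With the last, 31 of the 37 and 5382 genes in all were called higher. Both pseudocounts, both filters, limma without trend and robust limma left the call of each of the 37 genes as it was. The direction turned after rescaling for Polr1a (-0.262), Ubtf (-0.108) and Rrs1 (-0.01), and Polr1a (-0.262) and Ubtf (-0.013) also turned under quantile normalization. Leaving out 1 library gave 34 to 36 of the 37 higher, 0 lower and a median between 1.099 and 1.311 in TPM, and after rescaling 23 to 26 higher, 1 to 2 lower and a median between 0.528 and 0.659. All genes called higher then numbered 6198 to 7212 in TPM and 2007 to 2647 after rescaling, and those lower 950 to 1088 and 2407 to 2841. Under these fits Nop10 ranged from -0.124 to 0.098 in TPM and from -0.739 to -0.465 after rescaling. Polr1a ranged from 0.217 to 0.388 in TPM and from -0.347 to -0.205 after rescaling, Ubtf from 0.443 to 0.556 and from -0.149 to -0.092, Rrs1 from 0.515 to 0.727 and from -0.087 to 0.086, and Nob1 from 0.59 to 0.794 and from -0.003 to 0.181. Called higher in all 22 fits, which reuse the same libraries, were 22 of the 37 genes. The same count over all genes was not made, so this one has no background to be set against. The cause of these shifts was not tested. No paired analysis was possible because the labels give the groups no shared replicate numbers. With 3 libraries per group the spread is estimated from few values, and near-identical gene copies cannot be separated in the deposited values.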
